A study of Homo sapiens with 45 samples.

Results

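The 9 genes described here carry iron into cells, store it, release it or tune those steps: TFRC, STEAP3 and SLC11A2 for uptake, FTH1, FTL and NCOA4 for storage, SLC40A1 for export, and ACO1 and IREB2 for regulation. They were picked by name as a set of known iron genes, with earlier results of these data known, out of 60624 genes listed by Ensembl identifier, and each was found once in all 4 count tables. Expression was measured by polyA RNA sequencing in 45 libraries of T47D, an oestrogen receptor positive luminal breast cancer cell line, in 15 groups of 3. ZHX2 encodes a transcription factor with zinc fingers and homeodomains. The stated aims were to find hypoxia-induced genes that ZHX2 positively regulates and to follow expression when phase separation is disturbed.

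In the shRNA experiment, hypoxic cells carrying a short hairpin RNA that targets ZHX2 (shZHX2) were set against hypoxic cells with a control hairpin (shCtrl), and hypoxic shCtrl cells against shCtrl cells in normoxia. In the hexanediol experiment all cells were hypoxic and received no 1,6-hexanediol, 0.5% or 1% for 24 h; this alcohol is used to disturb phase-separated condensates. The rescue experiment held hypoxic shZHX2 cells that carried the WT, PA or SA form of ZHX2, hypoxic shZHX2 cells with vector, and hypoxic shCtrl cells with vector. What PA and SA change is not given in the sources used here. The sgRNA experiment held hypoxic cells labelled sgZHX2, sgCtrl, teton_sgZHX2 and teton_control. Infected cells were selected with hygromycin or puromycin. The labels do not say whether the 3 libraries of a group came from separate cultures, and each p-value thus reflects only how much libraries of a group differ, which may be technical variation. The labels give no oxygen level and, outside the hexanediol experiment, no duration of hypoxia.

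Iron bound to transferrin enters cells through the transferrin receptor, is reduced in endosomes by STEAP3 and leaves them through the transporter DMT1, the product of SLC11A2. Ferritin, a shell of heavy (FTH1) and light (FTL) chains, stores what is not used, NCOA4 delivers ferritin to lysosomes for breakdown, and ferroportin (SLC40A1) exports iron. When iron is scarce, the iron regulatory proteins IRP1 (ACO1) and IRP2 (IREB2) bind hairpins called iron-responsive elements. Binding in a 3' UTR protects the TFRC mRNA, and binding in a 5' UTR blocks translation of the ferritin and ferroportin mRNAs. Transcript counts therefore do not show how much ferritin or ferroportin protein was made.

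These hairpins are shown because they are the sequences through which iron controls the mRNAs of 4 of these genes. SLC11A2 is also known for an element in the 3' UTR of a subset of its mRNAs, which the motif below does not match. The motif searched was a C, 5 bases, the loop CAGTGN and 5 bases that pair with the first 5, G with T allowed, in the sense strand of GENCODE release 29 transcripts. It was found in 4 of the 9 genes, at 7 sites, and in 1.43% of the 19641 protein-coding genes searched. Bases are given 5' to 3' in DNA letters with the 6-base loop in capitals, on GRCh38.
TFRC 3' UTR, chr3:196050979-196051007, minus strand: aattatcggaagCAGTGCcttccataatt
TFRC 3' UTR, chr3:196050575-196050603, minus strand: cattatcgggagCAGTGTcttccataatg
TFRC 3' UTR, chr3:196050510-196050538, minus strand: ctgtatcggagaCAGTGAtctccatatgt
TFRC 3' UTR, chr3:196050463-196050491, minus strand: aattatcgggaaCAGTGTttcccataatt
FTH1 5' UTR, chr11:61967574-61967602, minus strand: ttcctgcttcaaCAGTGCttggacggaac
FTL 5' UTR, chr19:48965335-48965363, plus strand: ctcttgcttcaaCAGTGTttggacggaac
SLC40A1 5' UTR, chr2:189580661-189580689, minus strand: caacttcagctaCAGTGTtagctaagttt

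On GRCh38 the uptake genes TFRC, STEAP3 and SLC11A2 span chr3:196027183-196082189, chr2:119223831-119265652 and chr12:50979401-51028566. The storage genes FTH1, FTL and NCOA4 span chr11:61959718-61967660, chr19:48965301-48966878 and chr10:46005088-46030714. SLC40A1 spans chr2:189560579-189583758, ACO1 chr9:32384603-32454769 and IREB2 chr15:78437431-78501456. The 4 TFRC sites lay in the 3' UTR and the other 3 sites in 5' UTRs. No match in STEAP3, SLC11A2, NCOA4, ACO1 or IREB2 says only that these letters are not in the transcripts searched. The core of the hypoxia response element, ACGTG or GCGTG on either strand, was searched from 250 bases before to 50 bases after each RefSeq start on GRCh38.p14. Of the 8 genes with an entry, 5 held it in at least 1 promoter (TFRC, SLC11A2, FTL, ACO1 and IREB2). Counted per promoter, 7 of their 13 promoters held it, against 48.4% of all 35116 promoters.

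Total counts per library were 14111216 to 27217814. Levels are CPM, a gene's count scaled to its library's TMM-adjusted size within a table, and a gene was called when its edgeR quasi-likelihood test, adjusted over all genes of its table, gave p under 0.05. All 9 genes passed the filter on low counts in 3 tables and 8 did in the rescue table, where SLC40A1 had 0 to 3 reads in a library. All 8 luminal markers were above 1 CPM in every table, and basal, leukocyte and endothelial markers summed to at most 4.92, 2.57 and 2.69 CPM. The keratins KRT8, KRT18 and KRT19 made up most of each luminal sum given below. These sums therefore do not show that the other luminal markers moved alike. The 3 fibroblast markers summed to 13.0 to 72.4 CPM. In the shRNA, rescue and sgRNA experiments COL1A1 made up nearly all of this, with COL1A2 and DCN at most 0.14 and 0.21 CPM. In the hexanediol libraries COL1A2 was 6.98 to 9.72 CPM and DCN 0.62 to 1.32 CPM. ZHX2 mRNA, the check of the labels, was 4.91, 3.75 and 6.79 CPM in hypoxic shZHX2 cells, against 21.6, 18.3 and 16.4 CPM in hypoxic shCtrl cells (log2 fold change -1.86 ± 0.15 SE, adjusted p = 3.6e-10). With vector it was 7.07, 6.24 and 7.27 CPM in shZHX2 cells, against 31.2, 34.3 and 30.5 CPM in shCtrl cells. The WT, PA and SA forms brought it to 72.3 ± 1.44 CPM, 54.0 ± 0.436 CPM and 80.5 ± 2.26 CPM (SD, n = 3 each). In libraries labelled sgZHX2 it was 49.6, 51.3 and 47.9 CPM, against 43.8, 45.0 and 46.6 CPM in sgCtrl, and in libraries labelled teton_sgZHX2 it was 50.9, 48.8 and 48.3 CPM, against 47.3, 49.4 and 45.7 CPM in teton_control. The transcript was thus not lower in either pair, which by itself does not show whether the gene was cut, and the labels do not say what the teton cells received.

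**Figure D1:**
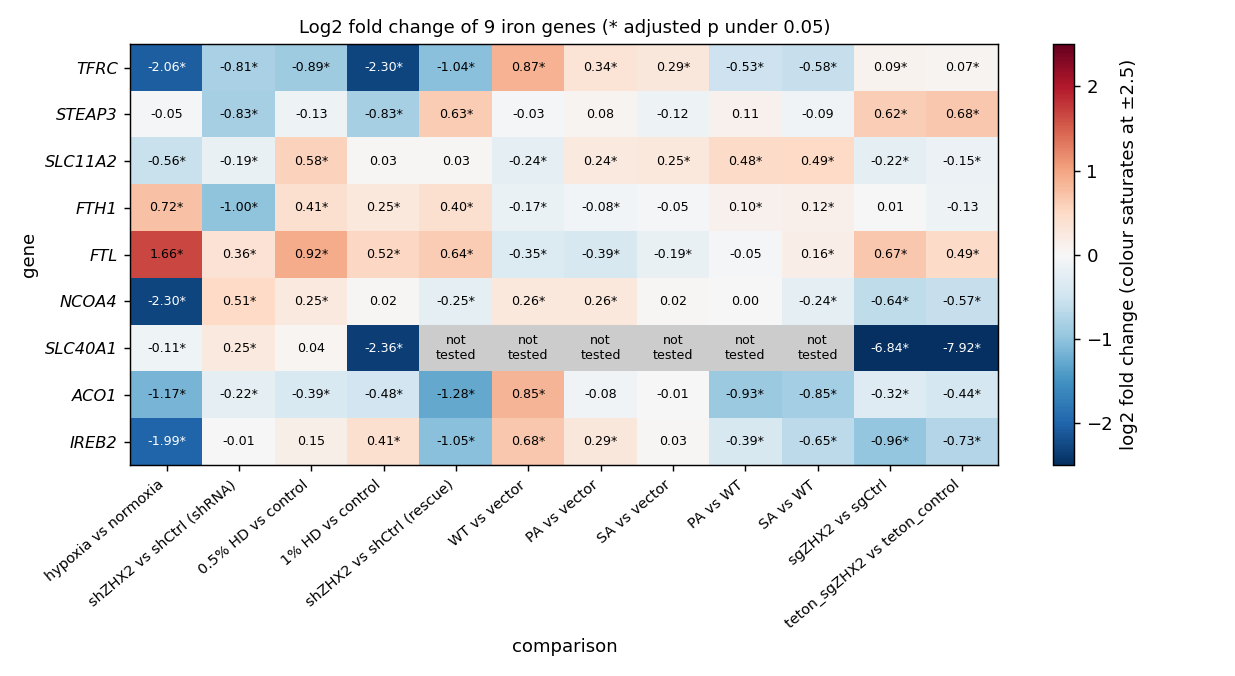
Log2 fold change of the 9 genes (rows) in 12 comparisons (columns), each the first-named group over the second; an asterisk marks an adjusted p under 0.05 and grey cells were not tested. TFRC was called lower in hypoxia, with shZHX2 in both experiments and with both doses of hexanediol (HD), and the dark SLC40A1 cells at the right rest on 1 and 4 reads in the sgZHX2 and teton_sgZHX2 groups.

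In shCtrl cells TFRC, NCOA4 and both IRP genes fell in hypoxia, and both ferritin chains rose. TFRC was 201, 207 and 198 CPM in hypoxia, against 834, 838 and 867 CPM in normoxia, a 4.18-fold lower level (log2 fold change -2.06 ± 0.028 SE, adjusted p = 8.52e-55). NCOA4, the ferritin cargo receptor, was 21.0, 20.1 and 19.9 CPM in hypoxia, against 97.1, 100.4 and 102 CPM in normoxia (log2 fold change -2.30 ± 0.059 SE, adjusted p = 7.39e-41). The hypoxic and normoxic libraries did not overlap for either gene. FTL was 489, 476 and 466 CPM in hypoxia, against 155, 146 and 151 CPM in normoxia, a 3.16-fold rise (log2 fold change 1.66 ± 0.030 SE, adjusted p = 5.5e-49). FTH1 was 1269, 1298 and 1316 CPM in hypoxia, against 875, 877 and 597 CPM in normoxia (log2 fold change 0.72 ± 0.15 SE, adjusted p = 0.00411). The third normoxic library was the low one for FTH1.

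Both IRP genes fell in hypoxia. IREB2 was 8.92, 10.2 and 9.0 CPM in hypoxia, against 36.4, 37.7 and 37.8 CPM in normoxia (log2 fold change -1.99 ± 0.084 SE, adjusted p = 6.43e-30). ACO1 was 15.8, 13.0 and 12.2 CPM in hypoxia, against 30.7, 28.7 and 32.3 CPM in normoxia (log2 fold change -1.17 ± 0.086 SE, adjusted p = 1.7e-18). SLC11A2, the endosomal iron transporter, was called lower at -0.56 ± 0.052 and SLC40A1, the exporter, at -0.11 ± 0.030 on the log2 scale. STEAP3, the endosomal reductase, was 12.3 ± 0.391 CPM in hypoxia and 12.7 ± 0.843 CPM in normoxia (SD, n = 3 each), a log2 difference with a 95% interval of -0.25 to 0.15. It was called lower with GC and length offsets (-0.67) and with library size only (-0.54). In all, 2 genes were called higher and 6 lower, while 43.1% of the 14903 genes tested rose and 36.8% fell; the median log2 fold change was -0.56 over the 9 genes and 0.12 over all genes.

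Base composition moved with these calls. The longest transcripts of the 6 genes called lower had 38.3 to 45.7% GC, and those of FTH1 and FTL had 50.1% and 56.3%. With offsets for GC content and length, TFRC was still lower at -0.89, NCOA4 at -1.5, ACO1 at -0.63 and IREB2 at -0.41, FTL was higher at 0.82 and FTH1 at 0.43, and all 6 stayed called. SLC11A2 turned to 0.53 and SLC40A1 to 0.81, so that no direction is given for either. With library size as the only scaling, which moved the median of all genes by more than 0.1, FTH1 was 0.24 and not called (adjusted p = 0.196). The 8 luminal markers summed to 58097 to 58789 CPM in hypoxia and 22216 to 23958 CPM in normoxia. Over all shRNA libraries FOXA1 ranged from 162 to 218 CPM, EPCAM from 69.8 to 113 CPM and ESR1 from 56.6 to 93.0 CPM. GATA3 ranged from 448 to 900 CPM and PGR from 60.4 to 282 CPM. The fibroblast markers summed to 46.5 to 51.2 CPM in hypoxia and 33.1 to 36.7 CPM in normoxia, with COL1A2 at 0 in every library of the experiment. The part of either list in these results was not tested. In libraries of whole cultures, fewer cells of a kind and less RNA per cell cannot be told apart.

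With shZHX2 in hypoxia, TFRC, STEAP3 and FTH1 fell and FTL rose. TFRC was 116, 115 and 115 CPM with shZHX2, against 201, 207 and 198 CPM with shCtrl (log2 fold change -0.81 ± 0.030 SE, adjusted p = 4.53e-32). STEAP3 was 6.82, 6.69 and 7.23 CPM with shZHX2, against 12, 12 and 12.7 CPM with shCtrl (log2 fold change -0.83 ± 0.11 SE, adjusted p = 3.46e-09). For both uptake genes every shZHX2 library was below every shCtrl library. FTH1 was 642, 692 and 605 CPM with shZHX2, against 1269, 1298 and 1316 CPM with shCtrl (log2 fold change -1.0 ± 0.15 SE, adjusted p = 0.00113). FTL was 629.9, 611 and 596 CPM with shZHX2, against 489, 476 and 466 CPM with shCtrl (log2 fold change 0.36 ± 0.028 SE, adjusted p = 1.31e-17). The ferritin chains thus moved apart: the ratio of FTL to FTH1 CPM per kb of exon was 2.20 ± 0.13 with shZHX2 in hypoxia, 0.852 ± 0.037 with shCtrl in hypoxia, and 0.460 ± 0.11 with shCtrl in normoxia (SD, n = 3 each).

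Of the other genes, NCOA4 (0.51 ± 0.066) and SLC40A1 (0.25 ± 0.031) were called higher with shZHX2, and SLC11A2 (-0.19 ± 0.055) and ACO1 (-0.22 ± 0.099) lower. IREB2 was 9.32 ± 1.11 CPM with shZHX2 and 9.37 ± 0.707 CPM with shCtrl (SD, n = 3 each; 95% interval of the log2 difference -0.21 to 0.19). The ACO1 call was at the threshold (adjusted p = 0.046) and was lost with RLE factors (0.105), with DESeq2 (0.23) and without the first shCtrl library in hypoxia (0.387). With library size only, SLC11A2 was 0.042, ACO1 0.015 and IREB2 0.23, on the other side of 0, and IREB2 was called higher (adjusted p = 0.0466). The median of all genes was then 0.25, against 0.022 with TMM. With GC and length offsets IREB2 was -0.29 and called lower (adjusted p = 0.00934), so that no direction is given. The luminal markers summed to 27033 to 27304 CPM with shZHX2 and 58097 to 58789 CPM with shCtrl, and the fibroblast markers to 69.5 to 72.4 CPM with shZHX2 and 46.5 to 51.2 CPM with shCtrl. Their part was not tested. In all, 3 genes rose and 5 fell, against 33.6% of all genes that rose and 33.2% that fell.

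**Figure D2:**
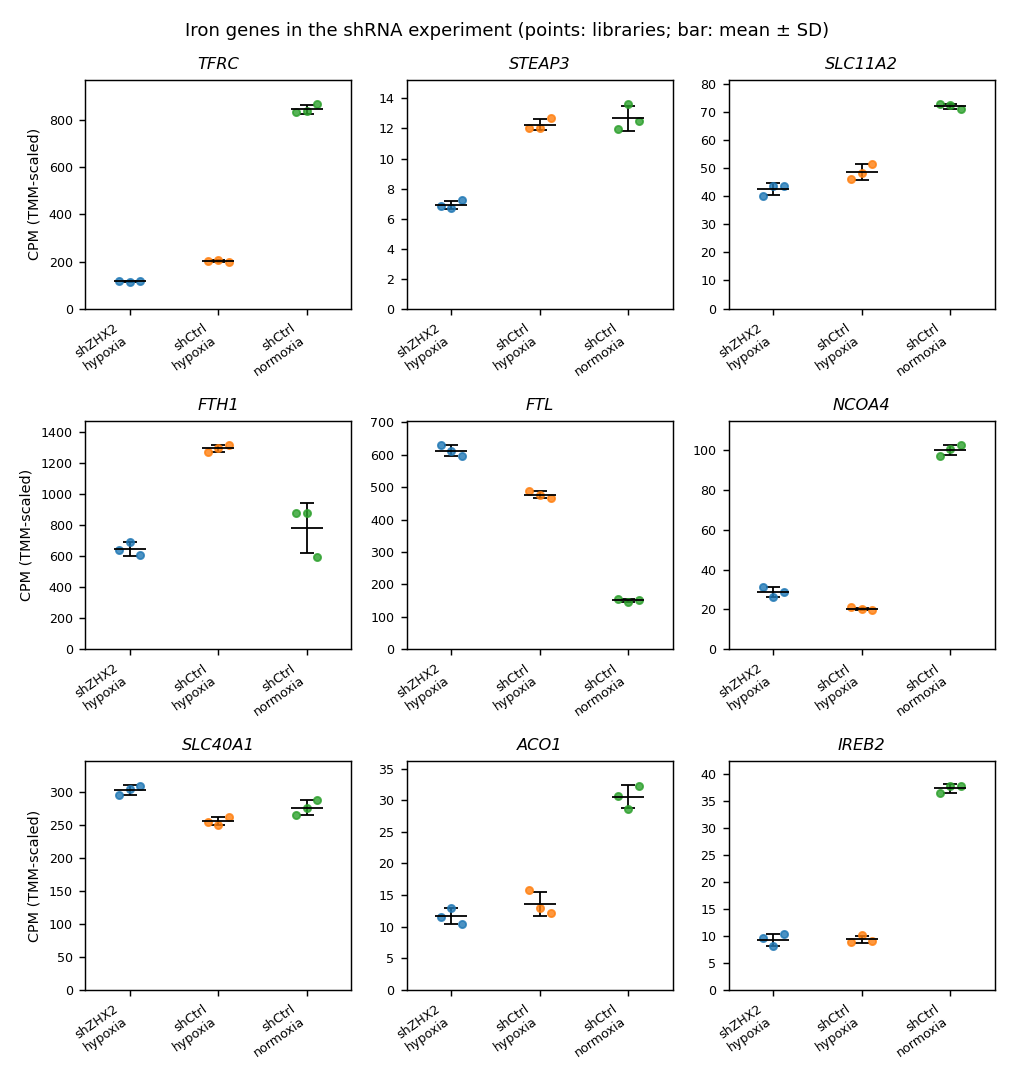
CPM of each gene (y axis, from 0) in the 3 libraries of hypoxic shZHX2, hypoxic shCtrl and normoxic shCtrl cells; points are libraries and bars the mean ± SD. TFRC, NCOA4 and IREB2 were lower in every hypoxic library than in any normoxic one, and FTH1 stood highest in hypoxic shCtrl cells.

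In the rescue experiment, TFRC, ACO1 and IREB2 were lower with shZHX2, and the WT form raised all of them. TFRC was 59.3, 62.9 and 58.3 CPM in shZHX2 cells with vector, against 120.0, 125 and 127 CPM in shCtrl cells with vector (log2 fold change -1.04 ± 0.036 SE, adjusted p = 1.32e-40). ACO1 was 3.03, 2.98 and 2.66 CPM with shZHX2 and vector, against 7.21, 7.56 and 6.26 CPM with shCtrl and vector (log2 fold change -1.28 ± 0.13 SE, adjusted p = 3.54e-14). IREB2 was 26.7, 27.2 and 24.1 CPM with shZHX2 and vector, against 52.7, 53.9 and 54.8 CPM with shCtrl and vector (log2 fold change -1.05 ± 0.051 SE, adjusted p = 3.3e-31). None of the shZHX2 libraries reached a shCtrl library for these 3 genes. FTL was 12160.3, 12207 and 12136 CPM with shZHX2 and vector, against 7825, 7819 and 7713 CPM with shCtrl and vector (log2 fold change 0.64 ± 0.024 SE, adjusted p = 3.92e-38). FTH1 (0.40 ± 0.029) and STEAP3 (0.63 ± 0.070) were called higher as well, and NCOA4 lower (-0.25 ± 0.048), a call lost with GC and length offsets at -0.098. With these offsets FTL was 0.33 and still called. As in hypoxia, the longest transcripts of the genes that fell had 38.3 to 45.7% GC and those of the genes that rose 50.1 to 56.9%. SLC11A2 was 29.1 ± 2.23 CPM with shZHX2 and 28.5 ± 0.365 CPM with shCtrl (SD, n = 3 each; 95% interval of the log2 difference -0.095 to 0.15; 0.30 and called with GC and length offsets). The luminal markers summed to 30618 to 31932 CPM with shZHX2 and vector and 45679 to 47148 CPM with shCtrl and vector, and the fibroblast markers to 27.3 to 29.8 CPM with shZHX2 and 16.7 to 21.1 CPM with shCtrl. Their part was not tested. In all, 3 of 8 genes rose and 4 fell, against 33.9% of the 14302 genes tested that rose and 35.3% that fell.

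Both experiments with the hairpin thus had lower TFRC and higher FTL with shZHX2. STEAP3, FTH1 and NCOA4 had opposite signs: STEAP3 was -0.83 ± 0.11 in the shRNA experiment and 0.63 ± 0.070 in the rescue experiment, FTH1 -1.0 ± 0.15 and 0.40 ± 0.029, and NCOA4 0.51 ± 0.066 and -0.25 ± 0.048. The difference between experiments was not tested, since the tables were fitted apart.

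WT ZHX2 brought TFRC to 111, 108 and 110.5 CPM, against 59.3, 62.9 and 58.3 CPM with vector (log2 fold change 0.87 ± 0.036 SE, adjusted p = 4.79e-35). ACO1 was 5.63, 5.15 and 4.72 CPM with WT, against 3.03, 2.98 and 2.66 CPM with vector (log2 fold change 0.85 ± 0.14 SE, adjusted p = 1.42e-07). IREB2 was 42.0, 41.2 and 41.8 CPM with WT, against 26.7, 27.2 and 24.1 CPM with vector (log2 fold change 0.68 ± 0.053 SE, adjusted p = 7.88e-20). In these 3 genes the WT libraries lay between those of vector and those of shCtrl. With GC and length offsets TFRC was 0.64, ACO1 0.78 and IREB2 0.34, all called. FTL was 9626, 9671 and 9424 CPM with WT, against 12160.3, 12207 and 12136 CPM with vector (log2 fold change -0.35 ± 0.024 SE, adjusted p = 3.39e-22), and FTH1 fell too (-0.17 ± 0.029); with GC and length offsets FTL was -0.16 and still called. NCOA4 was called higher (0.26 ± 0.049, or 0.031 and not called with GC and length offsets), SLC11A2 lower (-0.24 ± 0.065, with overlapping libraries), and STEAP3 was 21.4 ± 1.96 CPM with WT and 21.8 ± 1.55 CPM with vector (95% interval of the log2 difference -0.16 to 0.10; 0.20 and called with GC and length offsets). In all, 4 of 8 rose and 3 fell, against 35.1% and 34.6% of all genes.

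The PA and SA forms moved TFRC less than WT did, and the PA transcript was less and the SA transcript more abundant than that of WT. TFRC was 75.2, 77.3 and 76.5 CPM with PA, against 111, 108 and 110.5 CPM with WT (log2 fold change -0.53 ± 0.035 SE, adjusted p = 5.35e-23). With SA it was 70.4, 74.1 and 75.9 CPM, against the same WT values (log2 fold change -0.58 ± 0.035 SE, adjusted p = 3.88e-25). Against vector both forms still raised TFRC, at 0.34 ± 0.037 with PA and 0.29 ± 0.037 with SA; with GC and length offsets these were 0.11 and 0.16, both still called. ACO1 was 2.89, 2.64 and 2.63 CPM with PA (log2 fold change -0.93 ± 0.14 SE, adjusted p = 1.62e-08 against WT). With SA it was 2.80, 3.22 and 2.63 CPM (log2 fold change -0.85 ± 0.14 SE, adjusted p = 1.33e-07 against WT). Against vector the ACO1 difference was not called for either form, with 95% intervals of -0.38 to 0.22 and -0.30 to 0.29.

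IREB2 was also lower with PA (-0.39 ± 0.051) and SA (-0.65 ± 0.052) than with WT. With library size only, the PA values against WT were smaller, at -0.15 for IREB2, -0.28 for TFRC and -0.68 for ACO1. Against vector IREB2 was 0.29 ± 0.053 with PA, a call lost with GC and length offsets at -0.024, and not called with SA (-0.077 to 0.14). SLC11A2 went the other way, at 31.6, 35.7 and 36.1 CPM with PA, against 26.8, 23.4 and 23.5 CPM with WT (log2 fold change 0.48 ± 0.063 SE, adjusted p = 9.38e-10). With SA it was 36.0, 31.3 and 36.4 CPM (log2 fold change 0.49 ± 0.063 SE, adjusted p = 5.89e-10 against WT). Both forms were above vector in SLC11A2 (0.24 ± 0.060 and 0.25 ± 0.060), calls that were lost with GC and length offsets (0.023 and 0.15). These comparisons share their WT or vector libraries, so the PA and SA values are not independent of each other.

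FTL fell with PA (-0.39 ± 0.024) and SA (-0.19 ± 0.024) against vector. These were, with GC and length offsets, -0.092 and -0.13, and with library size only the PA value was -0.24; all stayed called. With PA against WT no direction is given for FTL. It was not called (95% interval -0.092 to 0.0020), was called higher with library size only (0.20) and with GC and length offsets (0.066), and was called lower with DESeq2 (-0.050, adjusted p = 0.038) and without the first (-0.063, adjusted p = 0.0468) or the third (-0.080, adjusted p = 0.00719) PA library. With SA it was above WT (0.16 ± 0.024; 0.033 and not called with GC and length offsets). FTH1 was -0.076 ± 0.029 against vector with PA (adjusted p = 0.0292), a call lost without the first vector library (0.293), the second PA library (0.0837) or the third (0.0609), and its sign turned with library size only (0.073) and GC and length offsets (0.053). FTH1 was called above WT with PA (0.099 ± 0.029) and SA (0.12 ± 0.029); without the first PA library the PA call was lost (adjusted p = 0.0593), and with GC and length offsets the SA value was 0.043 and not called. NCOA4 rose with PA against vector (0.26 ± 0.047) and was lower with SA than with WT (-0.24 ± 0.048). STEAP3 was not called in the 4 comparisons of PA and SA with vector or WT, but with GC and length offsets it was 0.18 with PA against vector and -0.18 with SA against WT, both called. With library size only, STEAP3 was called with PA against vector (0.23) and WT (0.35), and NCOA4 with PA against WT (0.25). The median of all genes with PA was then 0.17 against vector and 0.25 against WT. Without the second WT library STEAP3 was called with PA against WT (0.17, adjusted p = 0.0352). SA against vector was also called for FTH1 (-0.11) and NCOA4 (-0.14) with GC and length offsets. The luminal markers summed to 43577 to 44263 CPM with WT, 28757 to 28973 CPM with PA, 32063 to 32519 CPM with SA and 30618 to 31932 CPM with vector. The fibroblast markers summed to 13.0 to 15.2 CPM with WT, 17.8 to 19.98 CPM with PA, 14.5 to 16.8 CPM with SA and 27.3 to 29.8 CPM with vector. Their part was not tested. Against vector, 4 of 8 genes rose and 2 fell with PA (24.7% and 22.9% of all genes), and 2 rose and 1 fell with SA (20.2% and 21.5%). Against WT, 2 rose and 3 fell with PA (33.2% and 33.7%), and 3 rose and 4 fell with SA (32.1% and 32%).

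**Figure D3:**
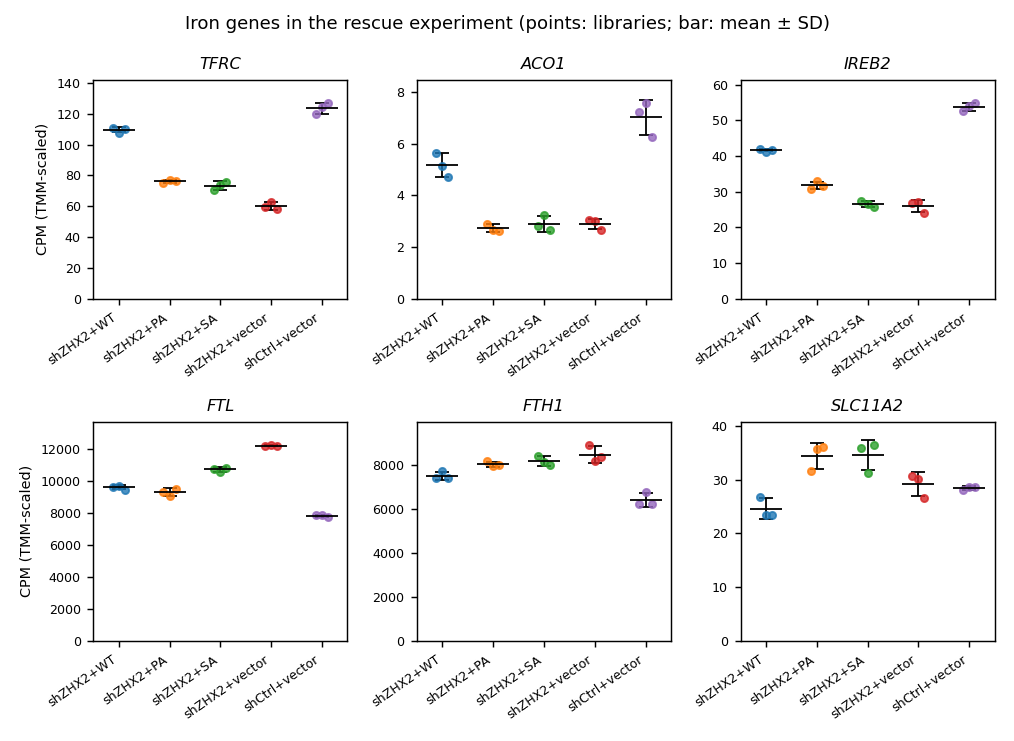
CPM of 6 genes (y axis, from 0) in hypoxic shZHX2 cells with the WT, PA or SA form or vector and in shCtrl cells with vector; points are libraries and bars the mean ± SD of 3. For TFRC, ACO1 and IREB2 the WT libraries stood above those of PA, SA and vector and below those of shCtrl, and for FTL the vector libraries stood highest.

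TFRC fell with each dose of hexanediol, and SLC40A1 fell at the higher dose. TFRC was 1379, 1315 and 1397 CPM in control cells, 782, 615 and 803 CPM at 0.5% and 285, 261 and 288 CPM at 1%. The log2 fold change against control was -0.89 ± 0.092 at 0.5% (adjusted p = 3.67e-06) and -2.30 ± 0.096 at 1% (adjusted p = 1.03e-10), and the step between doses was -1.40 ± 0.093. SLC40A1 was 556, 567 and 559 CPM in control cells, 613, 488 and 628 CPM at 0.5% and 106, 116 and 106 CPM at 1%. It was 5.12-fold lower than control at 1% (log2 fold change -2.36 ± 0.092 SE, adjusted p = 6.36e-11), whereas at 0.5% the 95% interval of the log2 difference was -0.13 to 0.21. The 1% libraries of SLC40A1 lay far below all others, and the 0.5% libraries lay on both sides of the control ones.

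FTL was 17.4, 19.5 and 16.9 CPM in control cells, 37.4, 31.8 and 32.8 CPM at 0.5% and 24.8, 29 and 23.4 CPM at 1% (0.92 ± 0.11 at 0.5% and 0.52 ± 0.11 at 1% against control). FTL was thus higher at both doses, more at 0.5% than at 1% (-0.40 ± 0.10 for the step; -0.11 and not called with GC and length offsets). FTH1 was higher at 0.5% (0.41 ± 0.10). At 1% its call (0.25 ± 0.10, adjusted p = 0.0372) was lost without the second library at that dose (0.176) or the third (0.0665), with counts of its pseudogenes added (0.0581) and without either the first or the second control library (0.133 and 0.181), and the groups overlapped. Counts of BEST1, which overlaps FTH1 on the other strand, reached 19.2% of those of FTH1 in this experiment, so that the FTH1 values here are uncertain. SLC11A2 rose at 0.5% (0.58 ± 0.081) and fell back in the step to 1% (-0.55 ± 0.081), with a 1% value of 0.031 ± 0.082 against control that was not called. ACO1 fell at both doses (-0.39 ± 0.072 and -0.48 ± 0.072). IREB2 rose at 1% (0.41 ± 0.067 against control and 0.26 ± 0.067 against 0.5%), calls that were lost with GC and length offsets (0.081 and -0.030). NCOA4 rose at 0.5% (0.25 ± 0.067), and was not called at 1% (95% interval -0.11 to 0.15). With library size only, NCOA4 (0.20, adjusted p = 0.0161) and SLC11A2 (0.21, adjusted p = 0.0362) were called higher at 1%, and IREB2 at 0.5% (0.28, adjusted p = 0.00614). The median of all genes was then 0.13 at 1% and 0.12 at 0.5%.

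The second library at 0.5% stood apart: STEAP3 was 11.0, 9.81 and 10.5 CPM in control cells, 7.16, 13.7 and 7.86 CPM at 0.5% and 5.98, 6.26 and 5.34 CPM at 1%. STEAP3 was called lower at 1% (log2 fold change -0.83 ± 0.21 SE, adjusted p = 0.00339), but with GC and length offsets it was -0.55 and not called. At 0.5% it was not called with all libraries, and was -0.48 (adjusted p = 0.00627) without that second library. The step between doses was -0.70 ± 0.21 with all libraries and -0.35 without it. Without the second libraries of both doses, calls were gained at 0.5% for IREB2 (0.17, adjusted p = 0.0152) and SLC40A1 (0.15, adjusted p = 0.0144), and for FTH1 between doses (-0.29, adjusted p = 0.00535). The 8 luminal markers summed to 24570.3 to 27389.7 CPM in control cells, 10403 to 14927 CPM at 0.5% and 3133 to 3414 CPM at 1%. Over all hexanediol libraries EPCAM stayed within 380 to 467 CPM. GATA3 ranged from 132 to 503 CPM, FOXA1 from 49.7 to 191 CPM, ESR1 from 32.1 to 175 CPM and PGR from 50.1 to 674 CPM. The fibroblast markers summed to 34.4 to 39.7 CPM in control cells, 42.8 to 48.7 CPM at 0.5% and 40.5 to 44.7 CPM at 1%. The part of either list in these results was not tested. Against control, 4 genes rose and 2 fell at 0.5% (19.4% and 19.6% of the 16840 genes tested), and 3 rose and 4 fell at 1% (30.2% and 32.3%). In the step from 0.5% to 1%, 1 rose and 6 fell (28.3% and 27.7%).

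**Figure D4:**
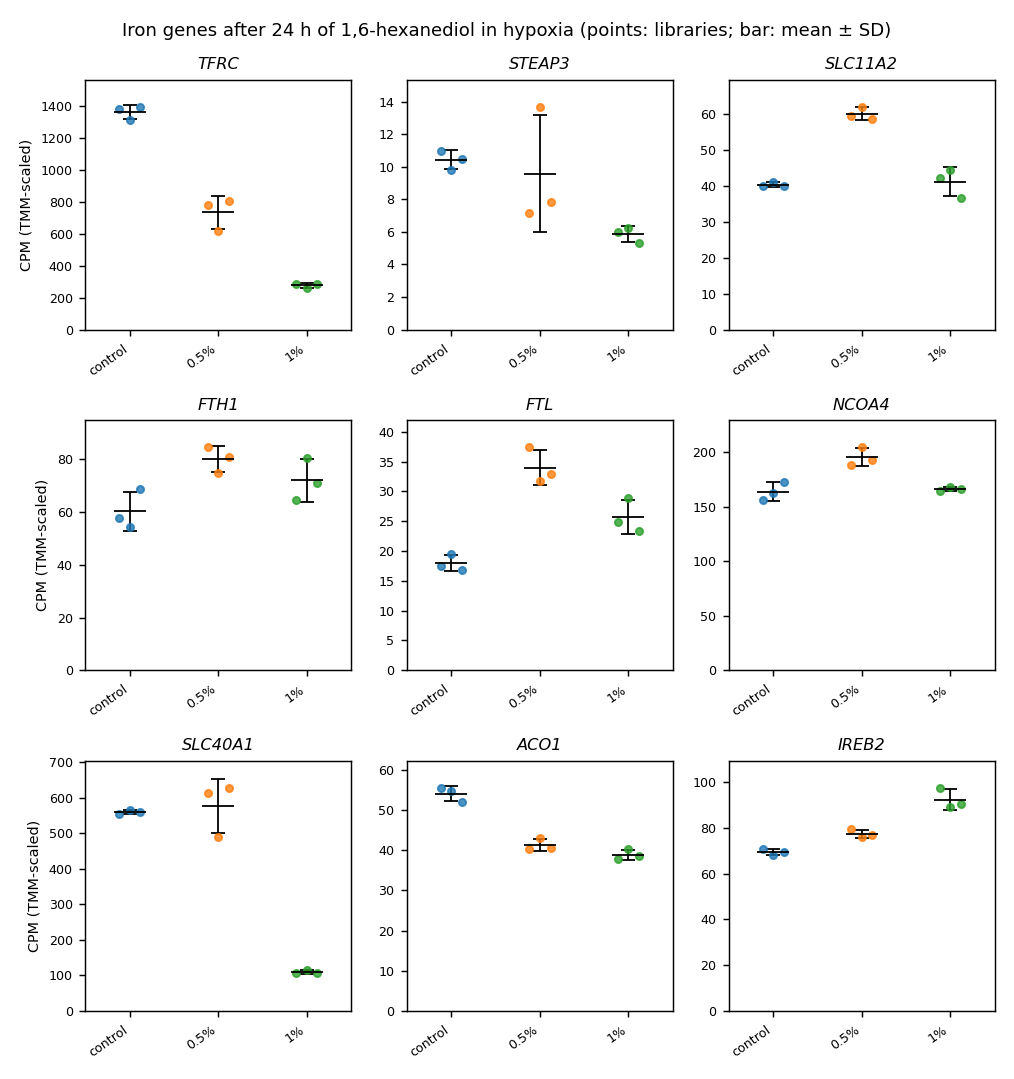
CPM of each gene (y axis, from 0) in hypoxic control cells and after 24 h with 0.5% or 1% 1,6-hexanediol; points are libraries and bars the mean ± SD of 3. TFRC steps down with each dose, SLC40A1 drops at 1%, and 1 of the 3 STEAP3 libraries at 0.5% lies apart.

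In the sgRNA experiment SLC40A1 was nearly absent from libraries labelled sgZHX2 and teton_sgZHX2. It had 0, 1 and 0 reads in sgZHX2, against 53, 60 and 42 reads in sgCtrl. For summed reads scaled by library totals this was 153-fold lower (exact 95% interval 27.0 to 6077, counting error only). It had 3, 0 and 1 reads in teton_sgZHX2, against 373, 412 and 300 reads in teton_control, or 256-fold lower (99.8 to 942). Both were called (adjusted p = 7.17e-18 and 2.74e-31). Their fitted log2 fold changes, shown in the overview of all comparisons, depend on the prior count and are no bound. The 2 controls themselves stood apart, at 14.6 ± 0.577 CPM in teton_control and 2.27 ± 0.307 CPM in sgCtrl (SD, n = 3 each).

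IREB2 was 73.4, 74.8 and 72.0 CPM in sgZHX2, against 145, 142 and 142 CPM in sgCtrl (log2 fold change -0.96 ± 0.031 SE, adjusted p = 7.05e-30). In teton_sgZHX2 it was 83.3, 84.3 and 83.2 CPM, against 142, 138 and 137 CPM in teton_control (log2 fold change -0.73 ± 0.030 SE, adjusted p = 1.31e-25). NCOA4 was 87.1, 85.1 and 86.0 CPM in sgZHX2, against 133, 134 and 135 CPM in sgCtrl (log2 fold change -0.64 ± 0.030 SE, adjusted p = 1.7e-23), and fell by a like amount in the teton pair (-0.57 ± 0.029). For IREB2 and NCOA4 no library of the sgZHX2 or teton_sgZHX2 groups reached its controls. FTL was 8203, 8916 and 8592 CPM in sgZHX2, against 5548, 5359 and 5215 CPM in sgCtrl (log2 fold change 0.67 ± 0.025 SE, adjusted p = 1.35e-22), and was 0.49 ± 0.024 in the teton pair. STEAP3 was 37.7, 37.3 and 38.0 CPM in sgZHX2, against 24.7, 24.0 and 24.7 CPM in sgCtrl (log2 fold change 0.62 ± 0.049 SE, adjusted p = 1.5e-15), and was 0.68 ± 0.049 in the teton pair. FTH1 was not called in either pair (95% intervals -0.13 to 0.15 and -0.27 to 0.017), but with GC and length offsets it was -0.23 and called in the teton pair.

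TFRC barely moved here: it was 263, 250.2 and 244 CPM in sgZHX2, against 229, 239.7 and 245 CPM in sgCtrl (log2 fold change 0.087 ± 0.029 SE, adjusted p = 0.00619), and 0.067 ± 0.028 in the teton pair. The sgZHX2 call was lost without the first sgCtrl library (adjusted p = 0.193) or the first sgZHX2 library (0.0909), and the groups overlapped. The teton call was lost with DESeq2 (0.0552) and without the first teton_control library (0.0946). With GC and length offsets TFRC was 0.49 in sgZHX2 and 0.37 in teton_sgZHX2, larger and called in both pairs. ACO1 fell in both pairs (-0.32 ± 0.10 and -0.44 ± 0.095; -0.15 and not called in the sgZHX2 pair with GC and length offsets). SLC11A2 was called lower (-0.22 ± 0.039 and -0.15 ± 0.038) but turned to 0.17 and 0.16 with GC and length offsets, so that no direction is given. With the same offsets the other large changes shrank and stayed called: IREB2 was -0.39 and -0.31, NCOA4 -0.36 and -0.39, FTL 0.37 and 0.29, and STEAP3 0.25 and 0.43. Markers of fibroblasts summed to 53.2 to 54.7 CPM in sgZHX2 and 25.9 to 28.6 CPM in sgCtrl, and to 47.8 to 48.0 CPM in teton_sgZHX2 and 27.8 to 30.5 CPM in teton_control, with 1 of 3 markers above 1 CPM, and their part in these results was not tested.

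In sgZHX2, 3 genes rose and 5 fell (37% and 36.1% of the 15781 genes tested), and the same 3 and 5 did in teton_sgZHX2 (34.4% and 34.7%). The teton effect minus the sg effect was called for 1 gene upward, IREB2 (log2 fold change 0.23 ± 0.043 SE, adjusted p = 0.000114), and for 1 downward, FTL (log2 fold change -0.19 ± 0.035 SE, adjusted p = 0.000165), against 12% and 8.33% of all genes. Both differences were lost with GC and length offsets (0.075 and -0.076), and TFRC was then called downward (-0.12). The ratio of FTL to FTH1 CPM per kb of exon was 3.37 ± 0.29 in sgZHX2, against 2.12 ± 0.11 in sgCtrl (SD, n = 3 each).

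**Figure D5:**
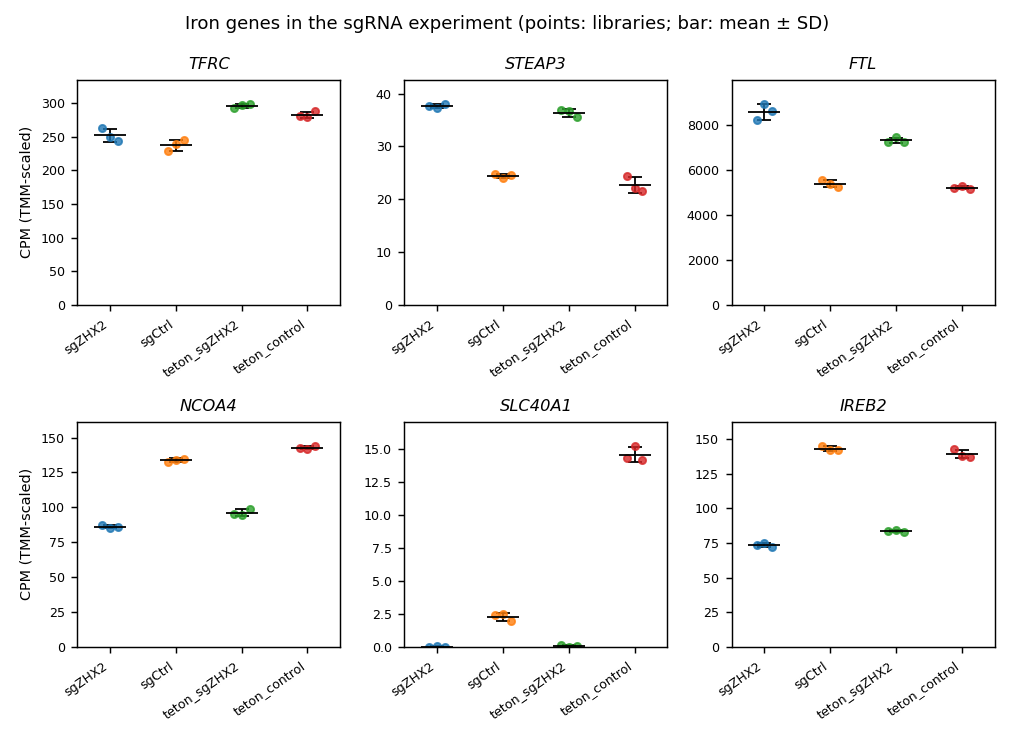
CPM of 6 genes (y axis, from 0) in libraries labelled sgZHX2, sgCtrl, teton_sgZHX2 and teton_control; points are libraries and bars the mean ± SD of 3. IREB2 and NCOA4 were lower and FTL and STEAP3 higher than in the paired control in every library, and SLC40A1 was at or near 0 in sgZHX2 and teton_sgZHX2.

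Per kb of exon, FTL and then FTH1 had the highest CPM of the 9 genes in all 9 groups of the rescue and sgRNA experiments, and FTH1 and then FTL did in shCtrl cells of the shRNA experiment. TFRC was highest in control cells of the hexanediol experiment, SLC40A1 at 0.5% and NCOA4 at 1%. Across the 15 group means, each centred on its table, FTL ran against IREB2 (Pearson r = -0.86), NCOA4 (-0.83), ACO1 (-0.81) and TFRC (-0.78), and FTH1 followed FTL only weakly (0.27). IREB2 ran with NCOA4 (0.89) and ACO1 (0.85). These are descriptions over points that share tables and controls, and FTL had the higher GC content (56.3%, against 38.3 to 45.7% for those 4). The genes most like TFRC over the same 15 means, among 12560 genes tested in all tables, were TTC19 (0.99), HMGB3 (0.96) and G3BP1 (0.96). Those most like FTL were CDIPT (0.97), ZNF580 (0.96) and PLD3 (0.95), and those most like FTH1 were PRPH (0.93), MAP1LC3B2 (0.89) and CRLS1 (0.86).

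Beyond the 9 genes, 66 further iron genes in 6 lists were followed, of which 52 to 59 were tested in a table. All their values are from the main fit with TMM. The GC and length offsets, which shrank or turned several changes of the 9 genes, and the other alternatives were not examined for them. The shares of all genes called are given beside the totals. In hypoxia 29 of 52 rose and 19 fell, against 43.1% and 36.8% of all genes. Of the 8 tested in the list of uptake and reduction, 5 rose and 3 fell, with a median log2 fold change of 0.45 against 0.12 over all genes. Transferrin receptor 2 (TFR2) was 7.75 ± 0.529 CPM in hypoxia, against 1.47 ± 0.292 CPM in normoxia (log2 fold change 2.39 ± 0.18), opposite to TFRC. HMOX1, the haem oxygenase that frees iron from haem, rose (1.0 ± 0.075), as did EPAS1, which encodes HIF-2α and carries a described iron-responsive element (0.73 ± 0.059). CUL1, a scaffold of the ubiquitin ligase that degrades IRP2, fell (-1.87 ± 0.10).

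With shZHX2 in hypoxia 17 of 52 rose and 19 fell in the shRNA experiment, against 33.6% and 33.2% of all genes. HMOX1 was 13.1 ± 0.142 CPM with shZHX2, against 31.0 ± 0.302 CPM with shCtrl (-1.24 ± 0.079). FBXL5, the iron-sensing subunit that directs IRP2 to degradation, rose (0.72 ± 0.089), whereas SKP1, another subunit of the same ligase, fell (-0.84 ± 0.0485). Of the 6 tested genes of ferritin and IRP handling, 3 rose and 1 fell. In the rescue experiment 20 of 53 rose and 21 fell with shZHX2, against 33.9% and 35.3% of all genes. Of the 6 tested genes of ferritin and IRP handling, 1 rose and 4 fell. There FBXL5 rose again (0.69 ± 0.045), whereas HMOX1 was 1451 ± 54.2 CPM with shZHX2 and 829 ± 6.73 CPM with shCtrl (0.81 ± 0.026), the other direction from the shRNA experiment; that difference was not tested. FDXR, the reductase that feeds iron-sulphur cluster synthesis, rose (1.30 ± 0.033), as did HMOX2, the constitutive haem oxygenase (1.16 ± 0.043).

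WT ZHX2 moved 22 of 53 up and 22 down against vector (35.1% and 34.6% of all genes). FBXL5 (-0.73 ± 0.046), FDXR (-1.30 ± 0.033) and HMOX2 (-1.19 ± 0.043) fell, and PCBP2, a chaperone that brings iron to ferritin, rose (1.08 ± 0.044). PA against vector had 12 up and 19 down (24.7% and 22.9% of all genes), and SA 13 up and 10 down (20.2% and 21.5%). Against WT, PA had 19 up and 25 down (33.2% and 33.7%), and SA had 22 up and 19 down (32.1% and 32%). PCBP2 was lower than WT with PA (-1.11 ± 0.044) and SA (-1.07 ± 0.044).

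Of 59 tested after hexanediol, 8 rose and 9 fell at 0.5% (19.4% and 19.6% of all genes). At 1%, 19 rose and 19 fell (30.2% and 32.3%). In the step between doses 20 rose and 14 fell (28.3% and 27.7%). The metalloreductase STEAP4 rose at 0.5% (1.59 ± 0.16) and fell at 1% (-2.31 ± 0.22). ISCU, the scaffold on which iron-sulphur clusters are built, was 314 ± 44.8 CPM at 1%, against 93.1 ± 6.20 CPM in control cells (1.75 ± 0.12), with 0.42 ± 0.12 at 0.5%.

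In sgZHX2 23 of 55 rose and 22 fell (37% and 36.1% of all genes), and in teton_sgZHX2 21 rose and 20 fell (34.4% and 34.7%). The difference between these effects was called upward for 8 and downward for 3 (12% and 8.33%). Of the 12 genes of haem synthesis and breakdown, 9 rose and 1 fell in sgZHX2, and 9 rose and 2 fell in teton_sgZHX2 (median log2 fold change 0.31 and 0.29, against 0.0085 and -0.0015 over all genes). HMOX2 was 119 ± 1.61 CPM in sgZHX2, against 42.1 ± 1.79 CPM in sgCtrl (1.5 ± 0.036). All 6 tested genes of ferritin and IRP handling fell in both pairs (median -0.34 and -0.28), among them SKP1, a subunit of the FBXL5 ligase (-0.77 ± 0.030 in sgZHX2 and -0.37 ± 0.030 in teton_sgZHX2). SLC25A28, a mitochondrial iron importer, rose (1.31 ± 0.074 and 1.07 ± 0.073).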

How the data were processed

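Per the labels' protocols, RNA was extracted from T47D cells, polyA RNA was selected and libraries were sequenced as read pairs. The authors deposited 4 tables of raw gene counts. The submitters' processing notes name FastQC, HISAT2, featureCounts, DESeq2 and hg38. Tool versions, annotation, strand setting and treatment of multi-mapping reads were not given in the sources used. FTH1, FTL and NCOA4 have pseudogene copies (23, 16 and 4 in the tables). Exons of FTH1 overlap BEST1 on the other strand and those of STEAP3 overlap STEAP3-AS1, so their reads cannot be told apart. BEST1 counts were at most 19.2% of those of FTH1 in the hexanediol table and at most 0.864% in the other tables.

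Counts were tested per table with edgeR 4.0.16 in R 4.3.3 (filterByExpr, TMM, robust quasi-likelihood fit over all groups of the table), adjusted over all genes of the table by Benjamini-Hochberg. Standard errors are the log2 fold change over the square root of F, and 95% intervals take the estimate as normally distributed. The test was checked on data simulated with the same spread for all genes and tables and no outlying library. That check does not show how the test behaves on the more variable hexanediol libraries. Alternatives were RLE factors, library size only, no filter, DESeq2 1.42.0, GC and length offsets, pseudogene counts added, the replicate block and each replicate left out; leaving out the second libraries of both hexanediol doses was chosen after seeing the data. Genes were the 9 members, ZHX2, up to 3 called genes per list and comparison whose log2 CPM averaged 1 or more, of which some are given, and the 3 genes most like TFRC, FTH1 and FTL. The members and lists were chosen with earlier results of these data known.

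Total counts per library were 17476890 to 19480495 (shRNA), 14111216 to 17713327 (hexanediol), 18056398 to 24760885 (rescue) and 21225854 to 27217814 (sgRNA). The 45 replicate pairs differed by more than counting noise (chi-square per degree of freedom 1.77 to 29.5). Same-numbered libraries of 0.5% and 1% hexanediol deviated together (correlations 0.15, 0.36 and 0.15), so the numbers may pair those groups. The main tests compared groups without this pairing, and the replicate block was an alternative. In no other of 22 pairs of groups were all correlations over 0.1. A second count took the libraries, out of the 6 in a pair of groups, that correlated best with their own number in the other group. It was 3 for the doses, 6 for WT and PA and 5 for control and 1% hexanediol. Correlations in the last 2 pairs were at most 0.015 and 0.051, so pairing there cannot be settled.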

Additional observations from a re-analysis of the deposited data

Results flagged for a closer look

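The response of 2 genes differed between the teton pair and the sg pair by the test of the difference itself (edgeR, n = 3 libraries in each of 4 groups). FTL was higher in both pairs, but the teton effect minus the sg effect was -0.19 on the log2 scale (adjusted p = 0.000165). IREB2 was lower in both pairs, and the same difference was 0.23 (adjusted p = 0.000114). With GC and length offsets neither difference was called (-0.076, adjusted p = 0.0816 for FTL, and 0.075, adjusted p = 0.327 for IREB2).

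With shZHX2 in hypoxia, STEAP3, FTH1 and NCOA4 moved one way in every shRNA library and the other way in every rescue library. The difference was not tested, and the share of all genes with opposite calls was not counted. Of all genes tested, 33.6% rose and 33.2% fell in the shRNA experiment, and 33.9% and 35.3% in the rescue experiment. STEAP3 was -0.83 in the shRNA experiment and 0.63 in the rescue experiment on the log2 scale. FTH1 was -1.0 in the shRNA experiment and 0.40 in the rescue experiment. NCOA4 was 0.51 in the shRNA experiment and -0.25 in the rescue experiment; the rescue value was -0.098 and not called with GC and length offsets (adjusted p = 0.0607).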

How the results depend on the processing

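Under the replicate block each of the 14 counts of called genes and each of the 120 single values kept its direction. No call changed. Whether the numbers pair libraries cannot be settled, since only a cut-off on correlations was used. With library size only, PA against WT called 8 genes instead of 5, and with GC and length offsets the teton minus sg difference called 1 instead of 2. The other counts stayed within 1.5 times. On leaving out 1 library, the counts were 8 to 8 in hypoxia, 7 to 8 and 7 to 7 with shZHX2 in the shRNA and rescue experiments, 6 to 7 at each hexanediol dose, 7 to 7 between doses, 7 to 7, 5 to 6 and 3 to 4 for WT, PA and SA against vector, 5 to 6 and 7 to 7 for PA and SA against WT, 7 to 8 in each sgRNA pair and 2 to 3 for their difference.

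These log2 fold changes changed sign, and the cause was not tested. With GC and length offsets: SLC11A2 0.53 and SLC40A1 0.81 in hypoxia; SLC11A2 -0.18 and NCOA4 -0.099 at 1% hexanediol; IREB2 -0.030 between doses; STEAP3 0.20 with WT; FTH1 0.053 and IREB2 -0.024 with PA, and STEAP3 0.018, NCOA4 -0.14 and IREB2 -0.13 with SA, against vector; STEAP3 -0.020 and FTL 0.066 with PA against WT; SLC11A2 0.17 and FTH1 -0.13 in sgZHX2, SLC11A2 0.16 in teton_sgZHX2, and SLC11A2 -0.013 and NCOA4 -0.026 in the difference. With library size only: SLC11A2 0.042, ACO1 0.015 and IREB2 0.23 with shZHX2 in the shRNA experiment, FTH1 0.073 and ACO1 0.070 with PA against vector, FTL 0.20 with PA and STEAP3 0.0018 with SA against WT. With RLE factors IREB2 was 0.032 with shZHX2 and NCOA4 -0.0041 with PA against WT, with DESeq2 these were 0.027 and -0.0028 and FTH1 in sgZHX2 -0.0010, without the filter ACO1 was 0.012 with SA against vector and NCOA4 -0.016 with PA against WT, and without the second hexanediol libraries SLC11A2 was -0.032 at 1%.

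Leaving out 1 library spanned 0 for STEAP3 in hypoxia (-0.092 to 0.0026), IREB2 with shZHX2 (-0.085 to 0.085), STEAP3 and SLC40A1 at 0.5% hexanediol (-0.48 to 0.065 and -0.0055 to 0.15), SLC11A2 and NCOA4 at 1% (-0.032 to 0.11 and -0.016 to 0.060), SLC11A2 with shZHX2 and vector (-0.011 to 0.094), STEAP3 with WT (-0.096 to 0.040), NCOA4, ACO1 and IREB2 with SA against vector (-0.0052 to 0.054, -0.083 to 0.056 and -0.025 to 0.066), NCOA4 with PA against WT (-0.034 to 0.014), FTH1 in sgZHX2 (-0.074 to 0.092), and TFRC and SLC40A1 in the teton minus sg difference (-0.031 to 0.022 and -2.27 to 0.86). Library size only moved the median of all genes by more than 0.1 in hypoxia (-0.36 from 0.12) and with shZHX2 in the shRNA experiment (0.25 from 0.022). It did so too at 0.5% (0.12 from 0.0019) and 1% hexanediol (0.13 from -0.044). With PA the median went to 0.17 from 0.024 against vector and to 0.25 from 0.002 against WT. GC and length offsets moved it to -0.026 from 0.12 in hypoxia. SLC40A1 in the rescue, sgZHX2 and teton_sgZHX2 libraries is limited by a few reads.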

Other observations

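The level of the ferritin chains differed widely between the 4 tables, which were not normalised together, so these values are a description. FTL lay at 16.9 to 37.4 CPM in the hexanediol libraries, 146 to 629.9 CPM in the shRNA libraries, 5156 to 8916 CPM in the sgRNA libraries and 7713 to 12207 CPM in the rescue libraries. FTH1 lay at 54.5 to 84.6 CPM in the hexanediol libraries, 597 to 1316 CPM in the shRNA libraries, 5071 to 6484 CPM in the sgRNA libraries and 6214 to 8889 CPM in the rescue libraries. All of these except the normoxic libraries of the shRNA table are from hypoxic T47D cells. SLC40A1 went the other way, at 106 to 628 CPM in the hexanediol libraries, 251 to 310.04 CPM in the shRNA libraries, 0 to 15.2 CPM in the sgRNA libraries and 0 to 0.122 CPM in the rescue libraries.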
